A study of Homo sapiens with 48 samples.

Results

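The germinal centre transcription factors described here are 10 genes, BCL6, MYBL1, MEF2B, MEF2C, BACH2, FOXO1, POU2AF1, SPIB, IRF8 and BCL7A, found by their symbols among the 37706 rows of a raw gene count table. All 10 were present, and all 10 were among the 17749 genes with enough counts to be tested. Of the 10, POU2AF1 is a coactivator and BCL7A a chromatin remodelling subunit, and the others are DNA-binding factors.

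The libraries come from established human lymphoma cultures, SUDHL6, Oci-Ly7, Oci-Ly8 and Oci-Ly18, which are GCB-DLBCL lines, that is, diffuse large B cell lymphomas with the expression profile of germinal centre B cells. Each line was grown for 6 days in 4 ways, with the combination of GSK343 and EPZ-5676, with GSK343 alone (EZH2i, an inhibitor of the histone methyltransferase EZH2), with EPZ-5676 alone (DOT1Li, an inhibitor of the histone methyltransferase DOT1L), or with the solvent DMSO. There were 3 libraries for each of the 16 pairs of line and treatment, 48 in all. The series title puts the question as whether DOT1L and EZH2 act together to keep germinal centre B cell identity. Each line is a single long-established culture, so the 4 lines stand for 4 tumours. The labels do not say whether the 3 replicates were separate cultures, and the p-values then measure only the spread between these libraries, which may be technical. Doses of the inhibitors were not given in the sources used here.

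Germinal centres are the sites in lymphoid follicles where activated B cells divide, mutate their antibody genes and are selected. The repressor BCL6 holds B cells in this state, in part by silencing PRDM1, whose product drives plasma cell differentiation. MEF2B and MEF2C act upstream of it or beside it, BACH2 is a further repressor of PRDM1, and FOXO1 and MYBL1 are features of the dividing dark zone cells. POU2AF1, SPIB and IRF8 activate B cell genes with partner factors, and BCL7A belongs to the SWI/SNF (BAF) remodelling complex, which is often mutated in these lymphomas.

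Promoter windows from RefSeq (GRCh38.p14), 250 bases before to 50 bases after an annotated start, were examined for 8 of the 10 genes (all but MYBL1 and POU2AF1), 16 windows in all, since some genes have several starts. Sequence features that the choice of genes did not use were counted in them and in all 35116 windows of the same length. The letters TTCNNNGAA, the core of the BCL6 binding motif, which read the same on both strands, occurred in 7.66% of all windows and 4 times in 1 BCL6 window, a number reached by 0.0199% of windows. It also occurred in a window at another MEF2C start. The octamer ATGCAAAT, which POU2AF1 and its partner factors recognise, occurred on either strand in 1.77% of all windows and in 1 window each of MEF2B and MEF2C. GAAANNGAAA, the repeat bound by interferon regulatory factors such as IRF8, was found in 3.57% of all windows and in that of FOXO1. Of the windows with a match, 4 are shown, that of BCL6 for its repeated matches to the motif of its own product, and those of MEF2B, MEF2C and FOXO1 for the octamer and the interferon repeat. Capitals mark these matches.
BCL6, chr3:187745419-187745718, minus strand: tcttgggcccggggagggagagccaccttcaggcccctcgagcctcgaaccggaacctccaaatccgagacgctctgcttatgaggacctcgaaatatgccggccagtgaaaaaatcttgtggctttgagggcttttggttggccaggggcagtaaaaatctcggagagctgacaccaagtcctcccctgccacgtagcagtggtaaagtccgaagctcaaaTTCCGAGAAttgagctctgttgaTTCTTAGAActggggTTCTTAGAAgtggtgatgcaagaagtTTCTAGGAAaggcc
MEF2B, chr19:19170214-19170513, minus strand: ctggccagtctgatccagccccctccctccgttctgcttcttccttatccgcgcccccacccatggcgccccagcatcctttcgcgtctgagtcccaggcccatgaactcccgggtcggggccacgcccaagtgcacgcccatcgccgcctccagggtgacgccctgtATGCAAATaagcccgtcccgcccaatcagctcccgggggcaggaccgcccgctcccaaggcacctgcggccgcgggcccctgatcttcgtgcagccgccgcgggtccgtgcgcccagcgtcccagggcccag
MEF2C, chr5:88824295-88824594, minus strand: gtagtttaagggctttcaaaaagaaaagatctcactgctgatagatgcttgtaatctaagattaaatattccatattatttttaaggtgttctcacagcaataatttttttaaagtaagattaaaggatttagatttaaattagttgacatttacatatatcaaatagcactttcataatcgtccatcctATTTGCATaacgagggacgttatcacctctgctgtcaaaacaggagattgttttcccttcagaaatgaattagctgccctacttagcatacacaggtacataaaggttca
FOXO1, chr13:40666592-40666891, minus strand: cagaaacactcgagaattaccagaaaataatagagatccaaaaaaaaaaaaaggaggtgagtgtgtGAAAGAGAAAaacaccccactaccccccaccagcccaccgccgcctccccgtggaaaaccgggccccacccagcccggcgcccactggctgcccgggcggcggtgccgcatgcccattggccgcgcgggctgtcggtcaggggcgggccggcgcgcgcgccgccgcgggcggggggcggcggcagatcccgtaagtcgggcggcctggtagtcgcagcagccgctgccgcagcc
In the BCL6 window the matches begin 28 and 5 bases before the start and at bases 10 and 36 after it. Searched on both strands in the 16 member windows, CTANNNNTAG (MEF2 factors, 2.73% of all windows) and GTAAACA (FOXO factors, 3.42%) had no match, AGAGGAA (SPIB and PU.1, 9.84%) had a match in 1 window and TGACTCA (BACH and AP-1 factors, 4.95%) in 2, which lie at other starts of BCL6 and MEF2C. A match is a string of letters and not an established binding site. CpG dinucleotides numbered 45 in the BACH2 window, 44 in that of BCL7A, 33 in that of FOXO1 and 28 in that of MEF2B, against a median of 14 over all windows, while both BCL6 windows held 7 and 12, SPIB 11 and both IRF8 windows 3 and 9.

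Library totals ran between 5174269 and 18845074 counts, with a median of 14499938. The shallowest, Oci-Ly8 DOT1Li replicate 3, and Oci-Ly8 DMSO replicate 3 also stood apart in having fewer counts from long transcripts. The slope of log counts on transcript length was 0.758 and 0.723 in these 2 libraries, against 0.821 to 1.01 in the other 46, so Oci-Ly8 results are given below with and without them where that matters. All 8 B lineage markers exceeded 1 CPM in every line. CPM is the usual per-million count, here relative to scaled library totals, and to unscaled totals for the cell type markers. The 8 T cell markers summed to 26.8 CPM in combination and 91.0 CPM in DMSO cultures of Oci-Ly7, with 4 of the 8 over 1 CPM and CD3D the lowest, while in the other lines no group exceeded 20.9 CPM. The largest parts of the Oci-Ly7 sum were TRAC (group means of 10.3 to 50.95 CPM) and CD28 (10.7 to 37.0 CPM). CD3E and CD3G reached 2.84 and 2.76 CPM, CD4 and CD2 0.083 and 0.253 CPM, and CD3D and CD8A stayed at 0. The part of this shift in T cell markers in the Oci-Ly7 results was not tested. As bulk RNA was sequenced, fewer cells expressing a gene and less RNA per cell cannot be told apart. DOT1L and EZH2, the targets of the inhibitors, stayed expressed in all groups. Averaged over lines, DOT1L had a log2 fold change of -0.15 in combination against DMSO (SE 0.04, adjusted p = 0.00166), and EZH2 of -0.26 (SE 0.03, adjusted p = 3.42e-10). By line, EZH2 was higher with the combination in Oci-Ly7 (log2 fold change 0.17, edgeR adjusted p = 0.0252). It was lower in Oci-Ly8 (-0.15), SUDHL6 (-0.50) and Oci-Ly18 (-0.57).

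Averaged over the 4 lines, the combination lowered 7 of the 10 genes and raised 2 (edgeR's quasi-likelihood test, Benjamini-Hochberg adjusted p under 0.05 over all genes tested, which is what "called", "rose" and "fell" mean below). Over all genes tested, 20.7% were called lower and 25.7% higher in that comparison. Those that fell were SPIB (-0.49, on the log2 scale throughout), IRF8 (-0.49), FOXO1 (-0.42), BCL7A (-0.41), MYBL1 (-0.21), BCL6 (-0.17) and POU2AF1 (-0.16), and those that rose were MEF2C (0.44) and BACH2 (0.29). MEF2B had no counts in some SUDHL6 groups, and its fitted average over 4 lines has no usable value. EZH2i alone lowered 4 of the 10 (IRF8, SPIB, POU2AF1 and FOXO1), against 12.5% of all genes, and raised 3 (MEF2C, BACH2 and BCL6), against 15.7% of all genes. DOT1Li alone lowered 2, FOXO1 and BCL7A, against 5.19% of all genes, and raised 0, against 5.08%. At an unadjusted p under 0.05 only IRF8 was higher with DOT1Li, and DESeq2 called it. With the replicate numbers as a block, edgeR called IRF8 higher (0.19) and BCL6 lower (-0.14) with DOT1Li as well. Of the 9 genes with a usable average, the median log2 fold change with the combination was that of MYBL1, -0.21, where that of all genes was 0.0783.

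These averages differ in how far they rest on single lines. The falls of FOXO1, SPIB, IRF8 and BCL7A and the rises of MEF2C and BACH2 with the combination, the fall of IRF8 and the rise of MEF2C with EZH2i, and the fall of FOXO1 with DOT1Li were called whichever of the 4 lines was left out. All other called averages were lost or turned round on leaving out some line. With the combination, POU2AF1 was lost without Oci-Ly18 (-0.05 (adjusted p = 0.22)). BCL6, at -0.17 over 4 lines, was -0.01 (adjusted p = 0.9999) without Oci-Ly7 and higher, at 0.18 (adjusted p = 0.0495), without Oci-Ly18. MYBL1, at -0.21 over 4 lines, was 0.08 (adjusted p = 0.484) without Oci-Ly7 and 0.16 (adjusted p = 0.101) without Oci-Ly18. Both genes rose in 2 lines and fell in the other 2. With EZH2i, leaving out SUDHL6 ended the calls of SPIB (-0.06), POU2AF1 (-0.01), BCL6 (0.02) and FOXO1 (0.00944), leaving out Oci-Ly8 those of BACH2 (0.18) and BCL6 (0.17), and leaving out Oci-Ly7 that of FOXO1 (-0.01). With DOT1Li, BCL7A was lost without SUDHL6 (-0.10 (adjusted p = 0.274)). The BCL6 average with the combination was also lost (adjusted p = 0.0255 with all libraries) without any 1 of 4 libraries, Oci-Ly8 DMSO replicate 2 (0.0732), Oci-Ly7 combination replicate 2 (0.0601), SUDHL6 combination replicate 3 (0.0588) or SUDHL6 DMSO replicate 2 (0.0564).

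**Figure D1:**
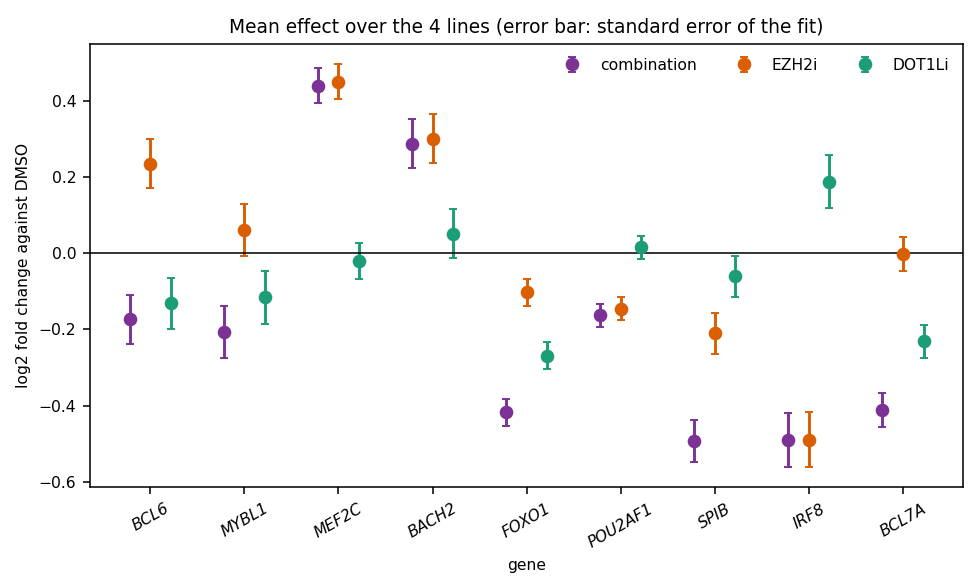
Log2 fold change against DMSO averaged over the 4 lines (y axis, points, with bars of 1 standard error of the fit) for 9 genes (x axis) under the combination, EZH2i and DOT1Li, with MEF2B left out for want of counts in SUDHL6. SPIB and IRF8 lie lowest with the combination, at -0.49 each, and MEF2C highest, at 0.44.

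The effect of treatment depended on the line for most of the 10 genes. The F test of a difference between lines in the effect of the combination was passed by 8 of the 10, and by 43.8% of all genes tested. With EZH2i it was passed by 8, where 24% of all genes passed, and with DOT1Li by 7, where 5.14% passed. In DMSO all 10 differed in level between the lines, as did 93.1% of all genes. The call of a difference between lines was lost on leaving out single libraries for POU2AF1 with DOT1Li (by any of 15 of 48 libraries, adjusted p up to 0.159), MEF2C with DOT1Li (by any of 4, up to 0.0651), BACH2 with EZH2i (by any of 16, up to 0.0998) and BCL7A with the combination (by any of 12, up to 0.113).

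Within Oci-Ly7, the combination lowered 6 of the 10 genes, where 12.2% of all genes fell, and raised 1, where 17.7% rose. EZH2i lowered 2 and raised 1 in that line, where 4.92% of genes fell and 8.78% rose. DOT1Li lowered 1, FOXO1, where 1.17% fell, and raised 0, where 1.72% rose. None of the 10 was higher there at an unadjusted p under 0.05, and DESeq2 called none. That single DOT1Li call became 5 without Oci-Ly7 DOT1Li replicate 1, 4 with no filter on low counts and 2 without Oci-Ly7 combination replicate 1 or 2. With the replicate numbers as a block it also became 5, with BCL6, MYBL1, IRF8 and BCL7A lower in addition.

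In Oci-Ly8, EZH2i raised 6 of the 10 genes, where 9.04% of all genes rose, and lowered 1, where 7.94% fell. Its calls with EZH2i numbered 4 in place of 7 without Oci-Ly8 DMSO replicate 3, and also 4 without both libraries that stood apart. The combination raised 3 genes (background 18.1%) and lowered 4 (16.9%), and without Oci-Ly8 combination replicate 1 the calls numbered 4 in place of 7. DOT1Li lowered MEF2C alone, where 2.73% of all genes fell, and raised 0, where 3.53% rose, and at an unadjusted p under 0.05 or by DESeq2 it raised none of the 10 either. The MEF2C call was lost without Oci-Ly8 DMSO replicate 2 or DOT1Li replicate 1.

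In SUDHL6 the combination raised 3 of the 10 genes (22.6% of all genes rose) and lowered 4 (16.8% fell). EZH2i raised 3 (14%) and lowered 3 (8.67%), and DOT1Li raised 2 (2.76%) and lowered 3 (2.11%). Oci-Ly18 showed 7 genes lower (14%) and 2 higher (21.1%) with the combination, 4 lower (9.04%) and 1 higher (13%) with EZH2i, and 5 lower (2.12%) and 1 higher (4.03%) with DOT1Li.

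**Figure D2:**
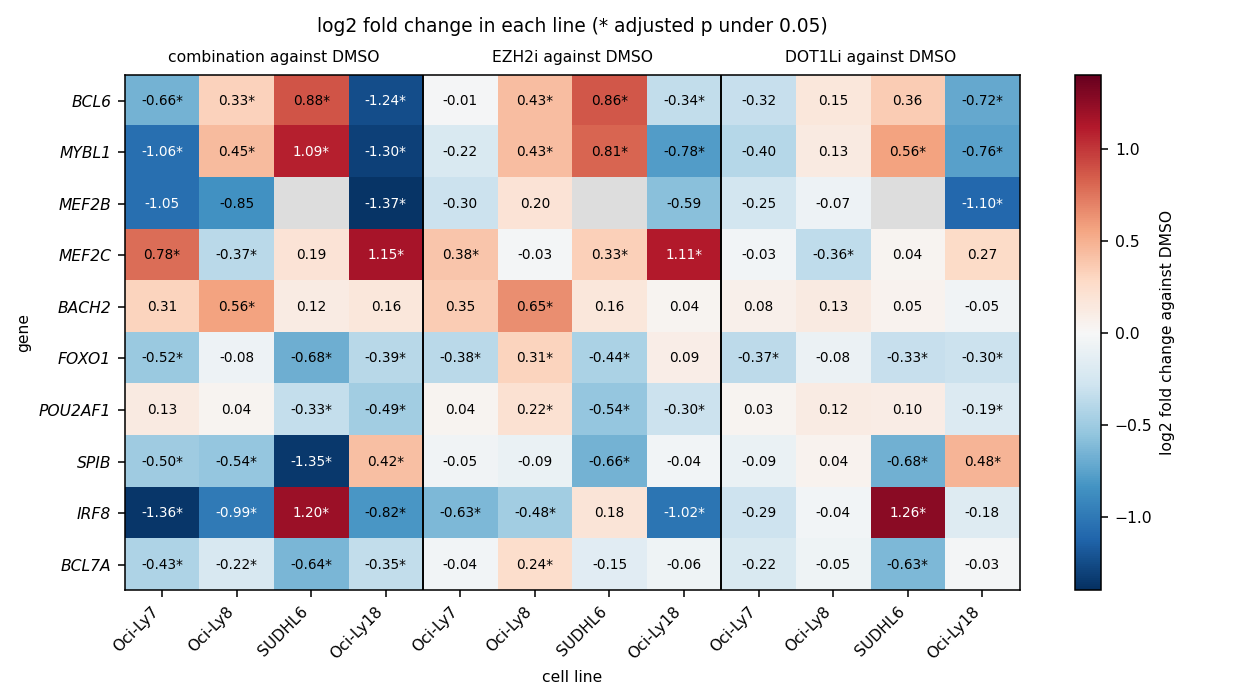
Log2 fold change against DMSO (colour) for each of the 10 genes (rows) in each line and treatment (columns), with an asterisk on effects that passed the test and grey for MEF2B in SUDHL6, where counts were too few. The BCL6 and MYBL1 rows have rises in SUDHL6 and Oci-Ly8 and falls in Oci-Ly7 and Oci-Ly18 with the combination, -1.24 and -1.30 in Oci-Ly18.

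BCL6, the transcriptional repressor that defines the germinal centre program (ENSG00000113916, chromosome 3, 187721377 to 187745725, GRCh38), fell with the combination in Oci-Ly7 and Oci-Ly18, where it was high in DMSO, and rose in SUDHL6 and Oci-Ly8. In Oci-Ly18 its levels were 85.9, 69.5 and 71.9 CPM with the combination, 149, 132 and 143 CPM with EZH2i, 114, 102 and 109.6 CPM with DOT1Li and 188, 161 and 188 CPM in DMSO. The 4 groups did not overlap in that line, and the combination libraries were the lowest. The fall with the combination was to 0.424 of the DMSO level (log2 fold change -1.24, SE 0.13, adjusted p = 1.91e-10), with DOT1Li to 0.606 (log2 fold change -0.72, SE 0.12, adjusted p = 8.2e-05), and the combination was also below EZH2i (log2 fold change -0.90, SE 0.13, adjusted p = 1.6e-06) and below DOT1Li (log2 fold change -0.52, SE 0.13, adjusted p = 0.00206). The smaller fall with EZH2i in Oci-Ly18 (log2 fold change -0.34, SE 0.12, adjusted p = 0.0401) was lost without any of 5 libraries, DMSO replicate 1 or 3 or any EZH2i replicate, with adjusted p up to 0.154. Oci-Ly7 libraries had 156, 109 and 129.9 CPM with the combination, 221, 189 and 211 CPM with EZH2i, 203, 138 and 161 CPM with DOT1Li and 218, 188 and 220.2 CPM in DMSO. Here only the combination lay wholly below DMSO (log2 fold change -0.66, SE 0.12, adjusted p = 3.33e-05), and the DOT1Li difference (log2 fold change -0.32, SE 0.12, adjusted p = 0.193) passed the test in other settings, for instance without DOT1Li replicate 1 (-0.479, adjusted p = 0.0143) or with no filter on low counts (-0.32, adjusted p = 0.00976).

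The same gene moved the other way in the line where it was lowest. SUDHL6 had 29.6, 29.5 and 24.4 CPM with the combination, 28.3, 29.1 and 25.1 CPM with EZH2i, 18.8, 22.1 and 17.1 CPM with DOT1Li and 13.4, 16.3 and 15.6 CPM in DMSO. Every combination and EZH2i library exceeded every DMSO library (log2 fold change 0.88, SE 0.15, adjusted p = 6.17e-06 for the combination and log2 fold change 0.86, SE 0.15, adjusted p = 2.22e-05 for EZH2i), and combination and EZH2i libraries overlapped. Oci-Ly8 had 144, 143 and 138 CPM with the combination, 143, 158 and 155 CPM with EZH2i, 127, 139.8 and 108 CPM with DOT1Li and 114, 134 and 91.1 CPM in DMSO. Both Oci-Ly8 rises depended on 1 of the libraries that stood apart. The EZH2i rise was 0.43 (adjusted p = 0.0127) with all libraries and 0.31 (0.128) without the pair, and the combination rise was 0.33 (adjusted p = 0.0359) and 0.22 (0.217). Without DMSO replicate 3 alone the values were 0.296 (adjusted p = 0.163) and 0.196 (0.288), and the combination call was also lost without combination replicate 1, 2 or 3 or DMSO replicate 1. By line, mean levels of BCL6 lay between 27.8 ± 2.94 CPM (SUDHL6) and 142 ± 3.32 CPM (Oci-Ly8) with the combination, and between 15.1 ± 1.51 CPM (SUDHL6) and 209 ± 17.9 CPM (Oci-Ly7) in DMSO (SD, n = 3 each). In DMSO, Oci-Ly7 and Oci-Ly18 did not differ beyond their spread (adjusted p = 0.102), and Oci-Ly8 and SUDHL6 followed in that order, each lower than the line before it.

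MYBL1, a MYB family activator that is abundant in dividing germinal centre cells (ENSG00000185697), had the same signs as BCL6 in all 4 lines with the combination. Its Oci-Ly7 levels were 107, 72.1 and 82.5 CPM with the combination, 164, 144 and 162 CPM with EZH2i, 155, 124 and 136 CPM with DOT1Li and 164, 195 and 187 CPM in DMSO. The combination libraries were all below those of the other 3 treatments, at 0.48 of the DMSO level (log2 fold change -1.06, SE 0.12, adjusted p = 6.21e-09). The combination also lay below each single inhibitor, with log2 fold changes of -0.66 (adjusted p = 0.0001, DOT1Li) and -0.84 (adjusted p = 5.43e-06, EZH2i). DOT1Li alone gave -0.40 (adjusted p = 0.0696), which passed the test in other settings, for instance without combination replicate 1 or 2 or DOT1Li replicate 1, or with no filter on low counts (adjusted p = 0.000528). Oci-Ly18 had 29.1, 25.1 and 24.9 CPM with the combination, 38.7, 35.3 and 39.7 CPM with EZH2i, 41.5, 33.6 and 40.3 CPM with DOT1Li and 63.3, 59.8 and 72.4 CPM in DMSO. All 3 treatments lay below DMSO there, the combination at 0.405 of it (log2 fold change -1.30, SE 0.14, adjusted p = 4.78e-10), EZH2i at 0.581 and DOT1Li at 0.59 (adjusted p = 1.9e-05 and 0.000127).

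In SUDHL6, MYBL1 rose under all 3 treatments, with 40.5, 35.8 and 37.2 CPM with the combination, 33.1, 28.3 and 32.3 CPM with EZH2i, 28.5, 25.1 and 25.3 CPM with DOT1Li and 16.5, 19.5 and 17.2 CPM in DMSO. The highest DMSO library was below the lowest library of each treatment. The combination effect was 2.13-fold (log2 fold change 1.09, SE 0.14, adjusted p = 6.05e-08) and the EZH2i effect 1.76-fold (log2 fold change 0.81, SE 0.14, adjusted p = 4.09e-05), while the DOT1Li effect (log2 fold change 0.56, SE 0.15, adjusted p = 0.0176) was lost without DMSO replicate 1 (0.104), DMSO replicate 3 (0.0663) or DOT1Li replicate 1 (0.0970). Oci-Ly8 showed 42.8, 35.9 and 37.1 CPM with the combination and 37.2, 35.7 and 41.5 CPM with EZH2i. Levels were 30.3, 37.3 and 21.9 CPM with DOT1Li and 30.6, 32.9 and 20.9 CPM in DMSO. The combination and EZH2i libraries were all above the DMSO libraries, and the DOT1Li libraries overlapped DMSO. The rises with the combination and EZH2i were 0.45 (adjusted p = 0.012) and 0.43 (adjusted p = 0.0276) with all libraries. Without both libraries that stood apart they were 0.31 (0.0961) and 0.28 (0.202), so neither was called. DMSO levels of MYBL1 ran downwards in the order Oci-Ly7 (182 ± 15.8 CPM), Oci-Ly18 (65.2 ± 6.5 CPM), Oci-Ly8 (28.1 ± 6.35 CPM) and SUDHL6 (17.8 ± 1.54 CPM), each step beyond the spread.

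BCL6 and MYBL1 also resembled each other more than any other gene. Over the 16 group means of log2 CPM, with the mean of each line subtracted, their correlation was 0.935, which made each the nearest of 13501 other protein-coding genes to the other. The 16 points share lines and libraries, so this is a description and has no p. Next after MYBL1 for BCL6 was ERBIN at 0.848, and next after BCL6 for MYBL1 was LY9, a SLAM family receptor, at 0.896. MEF2B ranked 72nd for BCL6 (0.699) and IRF8 ranked 1809th (0.325). The MEF2B value is uncertain, since it includes SUDHL6 groups with 0 to 4 counts each.

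**Figure D3:**
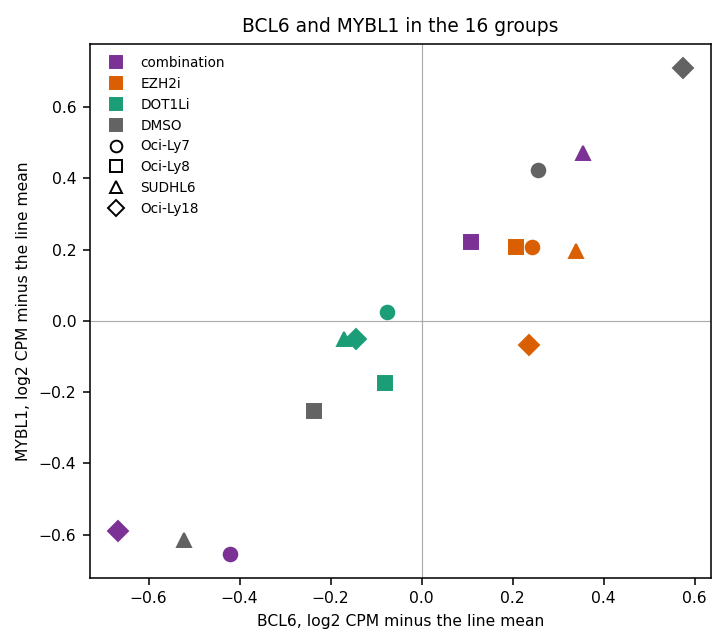
Line-centred log2 CPM of MYBL1 (y axis) against that of BCL6 (x axis) for the 16 group means, marked by line and treatment. The points follow 1 diagonal with a correlation of 0.935, the combination groups of Oci-Ly18 and Oci-Ly7 and the DMSO group of SUDHL6 at its lower end and the DMSO group of Oci-Ly18 at its upper end.

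MEF2B, an activator of BCL6 transcription in germinal centre B cells (ENSG00000213999, chromosome 19, 19145567 to 19192131), was near the limit of detection. Its counts summed over the 3 libraries of a group were 43 with the combination, 69 with EZH2i, 47 with DOT1Li and 99 in DMSO in Oci-Ly18, which are levels of 1.04, 1.34 and 0.578 CPM, 1.04, 1.26 and 2.61 CPM, 1.05, 0.901 and 1.6 CPM and 2.12, 2.63 and 2.8 CPM. All combination and DOT1Li libraries were below all DMSO libraries in this line, and the EZH2i libraries overlapped both. The fall with the combination was log2 fold change -1.37, SE 0.36, adjusted p = 0.00199. That with DOT1Li (log2 fold change -1.10, SE 0.35, adjusted p = 0.0498) was lost without any of 8 of the 12 libraries of the line (adjusted p up to 0.202) and under DESeq2. In Oci-Ly7 the summed counts were 20 with the combination and 39 in DMSO (-1.05 (adjusted p = 0.0948)), and in Oci-Ly8 22 and 42 (-0.85 (adjusted p = 0.158)). Neither difference passed, although the Oci-Ly7 one did without DMSO replicate 2. SUDHL6 had 4 counts with the combination, 1 with DOT1Li and 0 with EZH2i and in DMSO. A count of 0 there leaves room for a level of up to 0.0621 CPM in DMSO (3 counts over the group, counting error only), and no fold change is given for that line. Over the 3 lines other than SUDHL6 the average fall with the combination was -1.09 (SE 0.25, adjusted p = 0.000411), and that against EZH2i was -0.86 (adjusted p = 0.0105). MEF2B overlaps BORCS8 on the genome, whose counts summed to 4996 over all libraries against 535 for MEF2B, and how the authors' counting divided shared reads is not stated. BORCS8 itself was not called in the average of any treatment.

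MEF2C, the related factor that serves B cell survival and proliferation after antigen receptor signalling (ENSG00000081189, chromosome 5, 88717117 to 88904257), rose in most lines with EZH2i, most of all where it was lowest. Oci-Ly18 had 33.9, 39.4 and 39.2 CPM with the combination, 39.1, 36 and 34.7 CPM with EZH2i, 20.3, 22.2 and 18.5 CPM with DOT1Li and 17, 18.1 and 15.5 CPM in DMSO. Combination and EZH2i libraries overlapped each other and lay far above the rest, at 2.22-fold (log2 fold change 1.15, SE 0.10, adjusted p = 1.27e-12) and 2.17-fold (log2 fold change 1.11, SE 0.11, adjusted p = 8.58e-12) the DMSO level. In Oci-Ly7 the levels were 111, 143 and 134 CPM with the combination, 88.2, 109.6 and 96 CPM with EZH2i, 70.1, 78.3 and 71.3 CPM with DOT1Li and 69.5, 81.2 and 74.2 CPM in DMSO. The combination exceeded EZH2i alone in this line (log2 fold change 0.40, SE 0.087, adjusted p = 0.0011), and EZH2i exceeded DMSO (log2 fold change 0.38, SE 0.088, adjusted p = 0.00135). SUDHL6 showed the highest DMSO level, 125 ± 6.92 CPM, and a small rise with EZH2i (log2 fold change 0.33, SE 0.086, adjusted p = 0.00307). Oci-Ly8 went the other way, with 60.3, 67 and 67.1 CPM with the combination, 79.1, 88.5 and 78.5 CPM with EZH2i, 62.5, 72.6 and 59.3 CPM with DOT1Li and 81, 92.3 and 78.1 CPM in DMSO. The combination lowered MEF2C there (log2 fold change -0.37, SE 0.091, adjusted p = 0.000976) and so did DOT1Li (log2 fold change -0.36, SE 0.093, adjusted p = 0.0103), although the DOT1Li call was lost without DMSO replicate 2 (0.0669) or DOT1Li replicate 1 (0.0690). DMSO levels of Oci-Ly8 and Oci-Ly7 did not differ beyond their spread (adjusted p = 0.114).

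BACH2, a repressor of PRDM1 that works with BCL6 (ENSG00000112182, chromosome 6, 89926528 to 90296843), was among the more abundant of the 10 and moved little. In Oci-Ly8 it had 298, 289 and 275 CPM with the combination, 297, 306 and 314 CPM with EZH2i, 237, 248 and 148 CPM with DOT1Li and 232, 221 and 130.1 CPM in DMSO. The combination and EZH2i libraries were above all DMSO libraries, while DOT1Li replicate 3 and DMSO replicate 3, the libraries poor in long transcripts, were the lowest. The rises were 0.56 (adjusted p = 0.000656) with the combination and 0.65 (adjusted p = 0.000342) with EZH2i. Without those 2 libraries they were 0.37 (2.93e-05) and 0.44 (3.55e-06), smaller and still called. In a fit of the Oci-Ly8 libraries alone they were not called (0.0578 and 0.0735). Oci-Ly7 had 219, 202 and 189 CPM with the combination, 199, 216 and 211 CPM with EZH2i and 159, 184 and 146 CPM in DMSO. Both treated groups were above all DMSO libraries, and the differences (0.31 (adjusted p = 0.0615) and 0.35 (adjusted p = 0.0615)) passed only in other settings, for instance without DMSO replicate 2. Effects in SUDHL6 (0.12 with the combination) and Oci-Ly18 (0.16) were not called, and neither was any DOT1Li effect. All Oci-Ly18 combination libraries were above all DMSO libraries of that line. That effect was called in a fit of Oci-Ly18 alone (0.14, adjusted p = 0.0168) and without the 2 Oci-Ly8 libraries (0.15, adjusted p = 0.0447). DMSO levels were highest in Oci-Ly18 (489.6 ± 17.2 CPM) and SUDHL6 (378 ± 31 CPM), and those of Oci-Ly8 and Oci-Ly7 did not differ beyond their spread (adjusted p = 0.0854).

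FOXO1, a forkhead activator held outside the nucleus by PI3K signalling and needed for the dark zone (ENSG00000150907, chromosome 13, 40555667 to 40666641), was lower with DOT1Li and with the combination in 3 of 4 lines. SUDHL6 had 41.2, 41.4 and 45.2 CPM with the combination, 48, 49.9 and 53.6 CPM with EZH2i, 55.6, 55.7 and 52.2 CPM with DOT1Li and 65.5, 74 and 65.7 CPM in DMSO. Every treated library was below every DMSO library, and the combination was the lowest (log2 fold change -0.68, SE 0.07, adjusted p = 5.23e-11). EZH2i alone gave -0.44 (adjusted p = 4.04e-06) and DOT1Li alone -0.33 (adjusted p = 0.00219). The combination was below DOT1Li (-0.36 (adjusted p = 0.000142)) and below EZH2i (-0.24 (adjusted p = 0.0238)), the second difference being lost without any of 4 libraries (up to 0.162). Oci-Ly7 had 34.5, 31.6 and 35 CPM with the combination, 35.5, 37 and 39 CPM with EZH2i, 41.7, 35.1 and 35.1 CPM with DOT1Li and 47.3, 49.6 and 47.8 CPM in DMSO. DMSO again stood above all treated libraries, and the fall with the combination was log2 fold change -0.52, SE 0.072, adjusted p = 1.24e-07. In Oci-Ly18 the levels were 64.1, 63.7 and 60.3 CPM with the combination, 89.6, 85.9 and 87.6 CPM with EZH2i, 65.6, 66.8 and 68.6 CPM with DOT1Li and 87, 79.5 and 80.3 CPM in DMSO. There the fall was shared by the 2 treatments that contain EPZ-5676, at -0.39 (adjusted p = 1.1e-05) with the combination and -0.30 (adjusted p = 0.00365) with DOT1Li, while EZH2i alone gave 0.09 (adjusted p = 0.383). Oci-Ly8 had 85.6, 84.5 and 88.4 CPM with the combination, 114, 113 and 111 CPM with EZH2i and 95.7, 96.8 and 79.6 CPM in DMSO. EZH2i raised FOXO1 in that line (log2 fold change 0.31, SE 0.068, adjusted p = 0.000766), and the combination was below EZH2i (log2 fold change -0.39, SE 0.068, adjusted p = 3.42e-05) and within the spread of DMSO. The 4-line average for EZH2i, -0.10, was lost without SUDHL6 DMSO replicate 2 (0.0580) and was 0.00944 with SUDHL6 left out.

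POU2AF1, the B cell coactivator of octamer-binding factors that germinal centre formation requires (ENSG00000110777, chromosome 11, 111352255 to 111455630), fell in Oci-Ly18 and SUDHL6. Oci-Ly18, with the highest level, had 453, 463 and 431 CPM with the combination, 512, 529 and 501 CPM with EZH2i, 532, 538 and 591 CPM with DOT1Li and 621, 638 and 635 CPM in DMSO. The combination libraries were the lowest and the DMSO libraries the highest (log2 fold change -0.49, SE 0.059, adjusted p = 2.76e-09). EZH2i also lowered it (log2 fold change -0.30, SE 0.059, adjusted p = 0.000116), and the fall with DOT1Li (log2 fold change -0.19, SE 0.059, adjusted p = 0.0408) was lost without any DMSO replicate or DOT1Li replicate 1 or 2 (adjusted p up to 0.205). SUDHL6 had 95.9, 95.3 and 99.2 CPM with the combination, 79.5, 86.2 and 84.9 CPM with EZH2i, 136, 131 and 124 CPM with DOT1Li and 112, 125 and 128 CPM in DMSO. Here EZH2i gave the lowest libraries (log2 fold change -0.54, SE 0.061, adjusted p = 2.85e-09), below the combination (log2 fold change -0.33, SE 0.061, adjusted p = 1.94e-05). The direct difference between combination and EZH2i, 0.21 (adjusted p = 0.0234), was lost on leaving out any of 5 of the line's libraries (up to 0.119). In Oci-Ly8 it rose with EZH2i (0.22 (adjusted p = 0.00736), and 0.0570 without EZH2i replicate 2), and no effect was called in Oci-Ly7. DMSO levels went down in steps that each exceeded the spread, Oci-Ly18 (631 ± 9.26 CPM), Oci-Ly8 (325 ± 11.7 CPM), Oci-Ly7 (256 ± 12.2 CPM) and SUDHL6 (122 ± 8.55 CPM).

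SPIB, an ETS factor of B cells related to PU.1 (ENSG00000269404, chromosome 19, 50418938 to 50431314), fell with the combination in 3 lines and rose in Oci-Ly18. SUDHL6 had 9.82, 10.9 and 6.84 CPM with the combination, 15.8, 15.2 and 13.4 CPM with EZH2i, 15.4, 14.4 and 14.3 CPM with DOT1Li and 24.6, 25.4 and 20.4 CPM in DMSO. The 2 single inhibitors overlapped, between the combination below and DMSO above. The combination brought SPIB to 0.392 of its DMSO level (log2 fold change -1.35, SE 0.12, adjusted p = 8.54e-13), and EZH2i and DOT1Li to 0.631 and 0.625 (adjusted p = 1.22e-05 and 0.000131). Oci-Ly7 had 19.1, 13.7 and 15.6 CPM with the combination, 22.7, 22.1 and 21.3 CPM with EZH2i, 19.9, 22 and 22.5 CPM with DOT1Li and 21.5, 23.4 and 23.4 CPM in DMSO. Only the combination was called in Oci-Ly7 (log2 fold change -0.50, SE 0.11, adjusted p = 0.00046), and its differences from DOT1Li and EZH2i (-0.41 (adjusted p = 0.00713) and -0.45 (adjusted p = 0.00525)) were lost without combination replicate 2. In Oci-Ly8, 21.8, 23.4 and 23.5 CPM with the combination stood against 30.8, 31.2 and 31.9 CPM with EZH2i, 37.2, 31.1 and 35.5 CPM with DOT1Li and 30.7, 31.5 and 38.2 CPM in DMSO. The combination was again the only treatment called (log2 fold change -0.54, SE 0.11, adjusted p = 9.98e-05). Oci-Ly18 showed 102, 83.4 and 86.1 CPM with the combination, 73.3, 64.5 and 60.4 CPM with EZH2i, 96.1, 98 and 88.9 CPM with DOT1Li and 64.6, 67.8 and 70.5 CPM in DMSO. The treatments with EPZ-5676 were above DMSO there, DOT1Li by log2 fold change 0.48, SE 0.097, adjusted p = 0.000624 and the combination by log2 fold change 0.42, SE 0.097, adjusted p = 0.000524. DMSO levels of SUDHL6 and Oci-Ly7 did not differ beyond their spread (adjusted p = 0.755), and Oci-Ly18 was the highest.

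IRF8, an interferon regulatory factor that partners PU.1 and SPIB and activates germinal centre genes (ENSG00000140968, chromosome 16, 85899116 to 85922606), fell in 3 lines and rose in SUDHL6 with the combination. In Oci-Ly7 it had 141, 97.6 and 99 CPM with the combination, 193, 186 and 182 CPM with EZH2i, 278, 222 and 210.0 CPM with DOT1Li and 284, 304 and 282 CPM in DMSO. Combination libraries lay below EZH2i libraries, and these below all others. The combination brought it to 0.389 of the DMSO level (log2 fold change -1.36, SE 0.12, adjusted p = 6.66e-12) and EZH2i to 0.645 (log2 fold change -0.63, SE 0.12, adjusted p = 0.000126). Oci-Ly8 showed the same order, with 92.1, 106 and 91 CPM with the combination, 131, 156 and 123 CPM with EZH2i, 181, 208 and 167 CPM with DOT1Li and 162, 232 and 180.2 CPM in DMSO. The combination effect was log2 fold change -0.99, SE 0.12, adjusted p = 2.46e-08, and that of EZH2i (log2 fold change -0.48, SE 0.12, adjusted p = 0.00366) was lost without DMSO replicate 2 (0.0573). Oci-Ly18 had 175, 165 and 158 CPM with the combination, 149.5, 143 and 139 CPM with EZH2i, 254, 259 and 258 CPM with DOT1Li and 265, 296 and 314 CPM in DMSO. EZH2i libraries were the lowest there. The effects were log2 fold change -0.82, SE 0.12, adjusted p = 6.17e-07 for the combination and log2 fold change -1.02, SE 0.12, adjusted p = 1.22e-08 for EZH2i, and the difference between these treatments, 0.21 (adjusted p = 0.292), did not pass. SUDHL6 was the exception, with 13.8, 12 and 10.7 CPM with the combination, 6.42, 6.57 and 4.96 CPM with EZH2i, 11.9, 14.3 and 11.8 CPM with DOT1Li and 5.53, 4.23 and 6.14 CPM in DMSO. All libraries with EPZ-5676 were above all others, at 2.3-fold with the combination (log2 fold change 1.20, SE 0.18, adjusted p = 1.06e-06) and 2.4-fold with DOT1Li (log2 fold change 1.26, SE 0.18, adjusted p = 2.19e-05), from a DMSO level of 5.3 ± 0.976 CPM that compares with 292 ± 24.9 CPM in Oci-Ly18 and 289.7 ± 12.2 CPM in Oci-Ly7. These last 2 did not differ beyond their spread (adjusted p = 0.957).

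BCL7A, a SWI/SNF subunit (ENSG00000110987, chromosome 12, 122019422 to 122062044), fell with the combination in all 4 lines, the only one of the 10 to be called in the same direction in each of them. SUDHL6 had 68.7, 67.6 and 67.9 CPM with the combination, 94.6, 93.9 and 97.3 CPM with EZH2i, 69.9, 71.4 and 64.7 CPM with DOT1Li and 105, 112 and 100.2 CPM in DMSO. Combination and DOT1Li libraries overlapped below the rest, and their effects were log2 fold change -0.64, SE 0.089, adjusted p = 9.85e-08 and log2 fold change -0.63, SE 0.09, adjusted p = 9.08e-06. Oci-Ly7 had 115, 91.4 and 86.9 CPM with the combination, 133, 130.0 and 122 CPM with EZH2i, 133, 106 and 101 CPM with DOT1Li and 137, 128 and 131 CPM in DMSO. The combination libraries of Oci-Ly7 were below those of EZH2i and DMSO (log2 fold change -0.43, SE 0.088, adjusted p = 0.000111). Oci-Ly18 had 134, 123 and 122 CPM with the combination, 155, 159.6 and 151 CPM with EZH2i, 153, 153 and 169 CPM with DOT1Li and 157, 159 and 167 CPM in DMSO. Again the combination was the lowest group (log2 fold change -0.35, SE 0.087, adjusted p = 0.00129). The Oci-Ly8 fall was the weakest, with 94.1, 106 and 84.3 CPM with the combination, 137, 135 and 121 CPM with EZH2i and 117, 118 and 97 CPM in DMSO, groups that overlapped for the combination. It was -0.22 (adjusted p = 0.0471) and was lost without any of 5 libraries (adjusted p up to 0.244), under DESeq2 and in a fit of Oci-Ly8 alone, and the rise with EZH2i (0.24 (adjusted p = 0.0496)) was 0.17 (0.231) without the 2 libraries that stood apart. The 4-line average for DOT1Li, -0.23, was -0.10 (adjusted p = 0.274) with SUDHL6 left out.

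**Figure D4:**
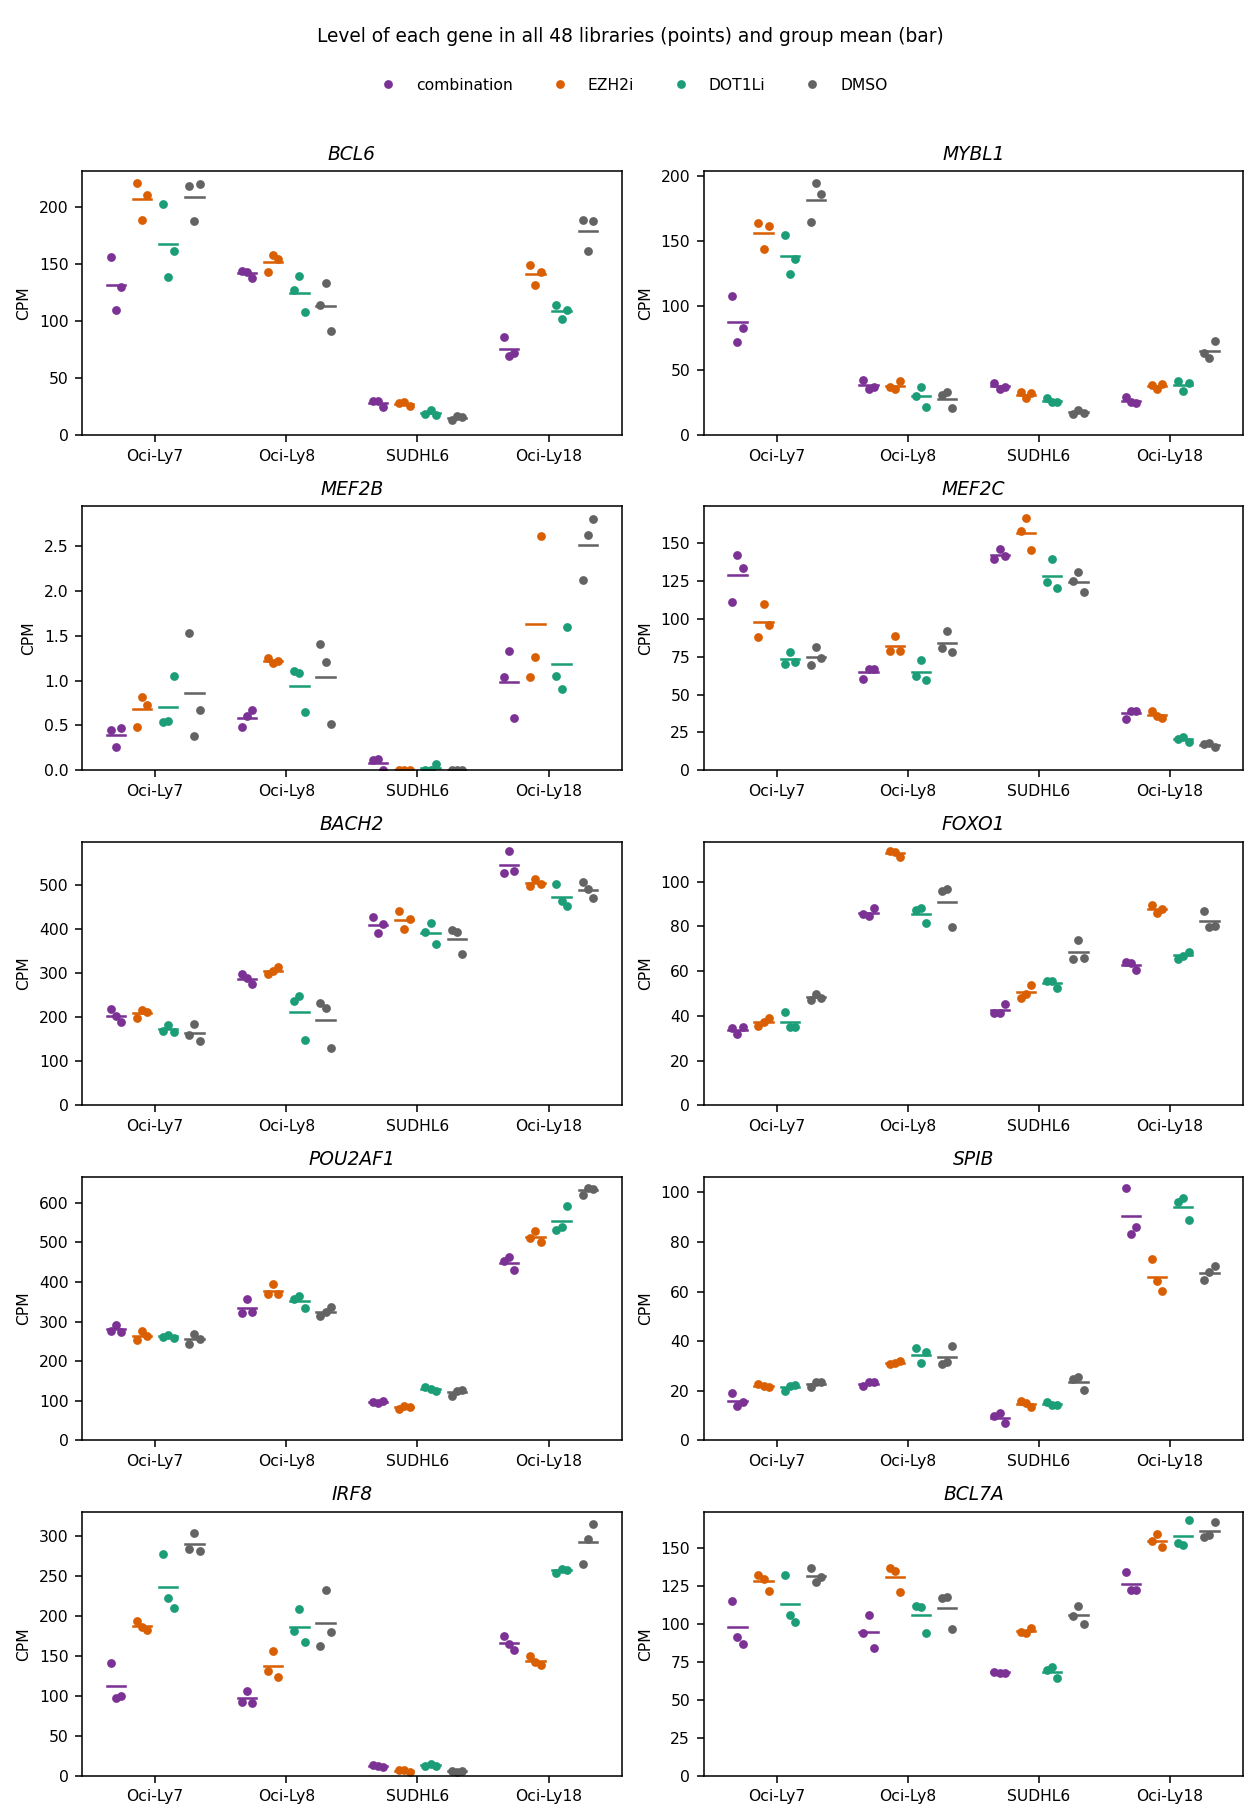
CPM in each library (points, y axis from 0) and group mean (bar) of the 10 genes, 1 panel a gene, by line (x axis) and treatment (colour). BCL6 and IRF8 in SUDHL6 lie below the other lines in DMSO, at means of 15.1 and 5.30 CPM, and MEF2B is under 3 CPM in every library.

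Compared per kilobase of exon (GENCODE 29 lengths), the order of the 10 genes in DMSO changed from line to line. In Oci-Ly18, POU2AF1 was the highest at 85.1 ± 1.25 CPM per kilobase (SD, n = 3), followed by IRF8 at 56.5 ± 4.83 and BACH2 at 50.03 ± 1.76. IRF8 led in Oci-Ly7 at 56.1 ± 2.35 CPM per kilobase, with BCL6 at 35.2 ± 3.02 and POU2AF1 at 34.6 ± 1.64, and POU2AF1 led in Oci-Ly8 at 43.8 ± 1.57, ahead of IRF8 at 37 ± 7. SUDHL6 stood out by BACH2 as its highest member at 38.7 ± 3.17 CPM per kilobase and by low levels of IRF8 (1.03 ± 0.189), MYBL1 (2.45 ± 0.213) and BCL6 (2.54 ± 0.254). MEF2B was the lowest member in every line, at 1.36 ± 0.192 CPM per kilobase in Oci-Ly18 and at 0 counts in SUDHL6.

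For BCL6, MYBL1 and IRF8 the lines with the highest DMSO levels were those where the combination lowered the gene. This did not hold for all members. SPIB was highest in Oci-Ly18 (67.6 CPM), where it rose, and fell in the other lines. FOXO1 was highest in Oci-Ly8 (90.7 CPM), the only line where its fall was not called. IRF8 fell with the combination in Oci-Ly18, Oci-Ly7 and Oci-Ly8 and rose in SUDHL6, and BCL6 and MYBL1 fell in Oci-Ly7 and Oci-Ly18 and rose in Oci-Ly8 and SUDHL6. Without the 2 libraries that stood apart, the Oci-Ly8 rises of BCL6 and MYBL1 were not called (adjusted p = 0.217 and 0.0961). IRF8 group means with the combination were 166 ± 8.58 CPM in Oci-Ly18, 113 ± 24.9 CPM in Oci-Ly7, 96.5 ± 8.58 CPM in Oci-Ly8 and 12.1 ± 1.55 CPM in SUDHL6. The DMSO libraries enter both the level and the effect, and with 4 lines no correlation is given.

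Set directly against the single inhibitors and averaged over lines, the combination was lower than EZH2i for 5 of the 10 genes, BCL6, MYBL1, FOXO1, SPIB and BCL7A, where 12.2% of all genes were lower. It was higher for 0, where 12.8% of all genes were higher, with 0 at an unadjusted p under 0.05 and 0 by DESeq2. Examples are BCL6 (log2 fold change -0.41, SE 0.063, adjusted p = 4.31e-06) and BCL7A (log2 fold change -0.41, SE 0.044, adjusted p = 9.53e-10). Against DOT1Li the combination was lower for 5, FOXO1, POU2AF1, SPIB, IRF8 and BCL7A (background 15.8%), and higher for 2, MEF2C and BACH2 (19.4%). The largest of these was IRF8 (log2 fold change -0.68, SE 0.066, adjusted p = 1.12e-10). EZH2i exceeded DOT1Li for 5 (BCL6, MEF2C, BACH2, FOXO1 and BCL7A, background 13.3%) and was below it for 3 (POU2AF1, SPIB and IRF8, background 11.1%). The SPIB difference among these (-0.15 (adjusted p = 0.0388)) was lost without any of 13 of the 48 libraries (adjusted p up to 0.0862). FOXO1, SPIB and BCL7A are the genes for which the combination was below both single inhibitors in the average. With SUDHL6 left out, FOXO1 against DOT1Li (-0.08 (adjusted p = 0.148)) and SPIB against EZH2i (-0.15 (adjusted p = 0.0769)) were not called. The difference from EZH2i was also lost for MYBL1 without Oci-Ly7 (-0.08 (adjusted p = 0.57)) or Oci-Ly18 (-0.18 (adjusted p = 0.0832)), and that from DOT1Li for BACH2 without Oci-Ly8 (0.17 (adjusted p = 0.072)). Between EZH2i and DOT1Li, calls were lost for BACH2, FOXO1 and SPIB without Oci-Ly8, for FOXO1 and SPIB without Oci-Ly18 and for POU2AF1 without SUDHL6.

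Departure from additive effects on the log2 scale, that is, the combination effect minus the sum of both single effects, was called for 0 of the 10 genes in the average over lines, and for 0.0507% of all genes tested. At an unadjusted p under 0.05 it was below 0 for 3 genes, BCL6 (-0.28, SE 0.091), SPIB (-0.22, SE 0.078) and BCL7A (-0.18, SE 0.062), none above 0, and DESeq2 called none. The count was 1 with no filter on low counts and 2 with the replicate numbers as a block. No gene of the 10 was called for departure within any line. A p that misses the threshold does not show that effects were additive.

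Genes that BCL6 is known to repress were examined next, from a list of 18. With the combination, averaged over lines, 10 of the 18 rose and 3 fell, where 25.7% of all genes rose and 20.7% fell, and the median log2 fold change was 0.614, or 0.365 when genes with an empty group were set to a floor of 3 counts, where that of all genes was 0.0783. The smallest p was that of PRDM1, the plasma cell regulator (3.5-fold, log2 fold change 1.81, SE 0.14, adjusted p = 1.65e-13), and BCL2, the survival factor, was also higher (log2 fold change 0.91, SE 0.083, adjusted p = 8.1e-12). PRDM1 rose in all 4 lines. Where BCL6 fell, it averaged 34.7 ± 9.62 CPM with the combination and 2.47 ± 0.449 CPM in DMSO in Oci-Ly7 (adjusted p = 3.17e-14), and 13.3 ± 0.929 CPM with the combination and 5.56 ± 1.17 CPM in DMSO in Oci-Ly18 (adjusted p = 0.000169). Where BCL6 rose, it averaged 6.06 ± 0.779 CPM with the combination and 2.22 ± 0.658 CPM in DMSO in Oci-Ly8 (adjusted p = 0.000941), and 9.05 ± 2.22 CPM with the combination and 5.48 ± 0.799 CPM in DMSO in SUDHL6 (adjusted p = 0.0239, SD, n = 3 each). The 8 plasma cell markers, PRDM1 among them, summed to 1503 CPM with the combination and 1882 CPM in DMSO in Oci-Ly7. These sums were 627 and 739 CPM in Oci-Ly8, 463 and 609 CPM in SUDHL6 and 574 and 541 CPM in Oci-Ly18, and were not tested. With EZH2i 6 of the 18 rose and 2 fell (15.7% and 12.5% of all genes), and with DOT1Li 4 rose and 1 fell (5.08% and 5.19%), among them PRDM1 (0.93 (adjusted p = 6.06e-06) and 1.02 (adjusted p = 1.22e-05)), BCL2 with EZH2i (0.62 (adjusted p = 5.1e-07)) and ID2, an inhibitor of E proteins, with DOT1Li (0.46 (adjusted p = 3.01e-05)). The DOT1Li rises numbered 2 with Oci-Ly7 left out, and the EZH2i rises 3 with SUDHL6 left out. The single DOT1Li fall became 2 without Oci-Ly8 DMSO replicate 3 and 0 with Oci-Ly18 left out, and the EZH2i falls became 4 without the Oci-Ly8 libraries that stood apart, 0 with Oci-Ly18 left out and 1 with SUDHL6 left out. By line, the combination raised 9 of the 18 in Oci-Ly7 (17.7% of all genes), raised 4 and lowered 1 in Oci-Ly8 (18.1% and 16.9%), raised 6 and lowered 4 in SUDHL6 (22.6% and 16.8%) and raised 8 and lowered 4 in Oci-Ly18 (21.1% and 14%). Without the floor, the list median was 0.611 in Oci-Ly7, 0.412 in Oci-Ly8, 0.435 in SUDHL6 and 0.0736 in Oci-Ly18. Those of all genes in these lines were 0.0313, 0, 0.0507 and 0.0511. The median in Oci-Ly18, where BCL6 fell most, was thus near that of all genes.

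Of 14 genes that FOXO1 is known to activate, 11 rose and 1 fell with the combination, where 25.7% of all genes rose and 20.7% fell (median 0.449, or 0.388 with the floor), in the comparison in which FOXO1 fell by 0.42 on the log2 scale. KLF2, a quiescence and trafficking factor, rose 3.65-fold (log2 fold change 1.87, SE 0.18, adjusted p = 2.27e-12), BTG1, an antiproliferative gene, rose less (log2 fold change 0.46, SE 0.046, adjusted p = 9.43e-12), and the average of RAG2, of antibody gene recombination, was 1.39 (adjusted p = 7.62e-16). That of RAG2 rested on Oci-Ly7 and was 0.05 (adjusted p = 0.686) without it, and the count of 11 became 5 with that line left out. The lowest group of KLF2 held 3 counts in total, so the size of its average rise is uncertain. The single fall became 2 with SUDHL6 left out. By line, the combination raised 9 of the 14 and lowered 2 in Oci-Ly7 (17.7% and 12.2% of all genes). It raised 4 and lowered 3 in Oci-Ly8 (18.1% and 16.9%), and raised 7 and lowered 2 in SUDHL6 (22.6% and 16.8%). In Oci-Ly18, where FOXO1 fell, it raised 3 and lowered 1 (21.1% and 14%). With EZH2i 4 of the 14 rose (15.7% of all genes), RAG2 (0.97 (adjusted p = 1.65e-10), and 0.18 at 0.1004 without Oci-Ly7) and BTG1 (0.42 (adjusted p = 4.4e-10)) among them. By edgeR 0 fell, with 0 at an unadjusted p under 0.05 and 0 by DESeq2, and 1 fell without Oci-Ly8 DMSO replicate 2, Oci-Ly8 EZH2i replicate 1, Oci-Ly7 or SUDHL6. With DOT1Li 4 rose and 1 fell (5.08% and 5.19% of all genes), and among those that rose was the cytokine receptor IL7R (0.63 (adjusted p = 2.34e-06)).

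**Figure D5:**
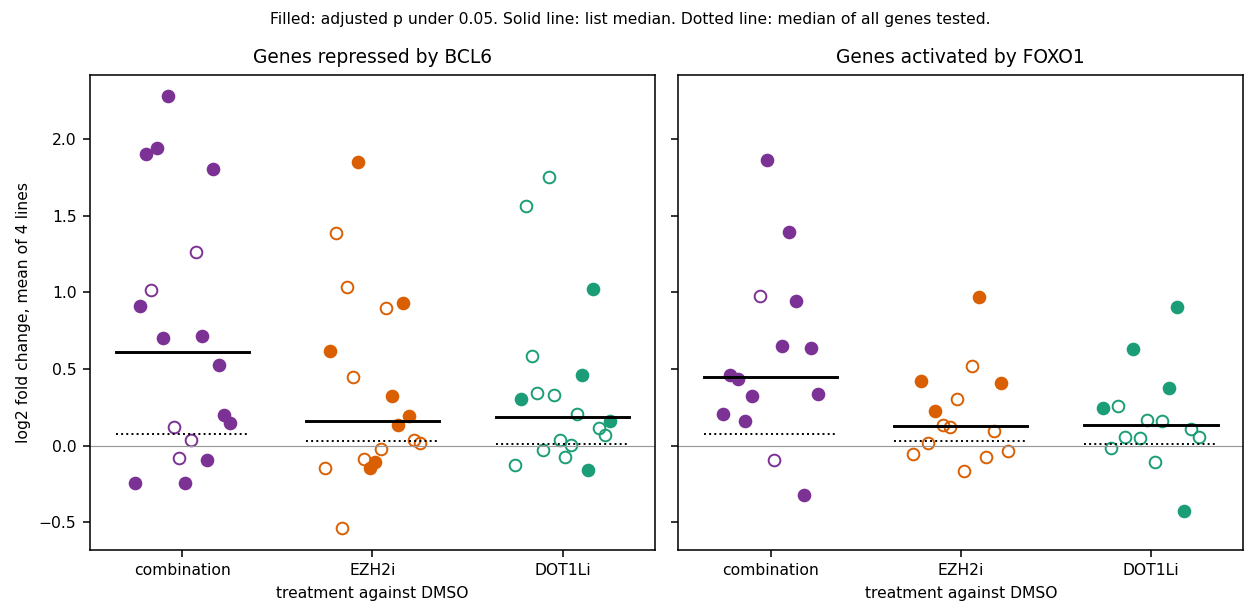
Log2 fold change against DMSO averaged over lines (y axis) of each gene (points) listed as repressed by BCL6 or activated by FOXO1, under the 3 treatments (x axis), with filled points for genes that passed the test, a solid line at the list median and a dotted line at the median of all genes. With the combination PRDM1 lies at 1.81 and KLF2 at 1.87, and the medians are 0.614 and 0.449. The lowest group of KLF2 held 3 counts in total.

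The 27 relatives and partners of the members, such as corepressors, family members and SWI/SNF subunits, moved in both directions. The combination raised 10 and lowered 10 (25.7% and 20.7% of all genes), EZH2i raised 9 and lowered 7 (15.7% and 12.5%), and DOT1Li raised 2 and lowered 5 (5.08% and 5.19%). Among them the class II deacetylase HDAC5 rose with all 3 treatments (log2 fold change 0.65, SE 0.038, adjusted p = 4.53e-19 for the combination, 0.39 (adjusted p = 2.97e-11) for EZH2i, 0.27 (adjusted p = 2.77e-06) for DOT1Li). MYB, the progenitor relative of MYBL1, rose with the combination (log2 fold change 0.72, SE 0.051, adjusted p = 9.7e-16) and with DOT1Li (0.42 (adjusted p = 1.17e-07)), and MYBL2, the cell cycle relative, fell with the combination (log2 fold change -0.34, SE 0.033, adjusted p = 1.75e-12). The SWI/SNF subunit SMARCD2 fell with EZH2i (-0.23 (adjusted p = 3.76e-09)). The count of 5 that fell with DOT1Li became 3 on leaving out any of 12 of the 48 libraries, 2 with SUDHL6 left out or with no filter on low counts, and 1 with Oci-Ly18 or Oci-Ly8 left out.

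Of 25 other germinal centre genes 23 were tested, of which the combination raised 7 and lowered 5 (25.7% and 20.7% of all genes), EZH2i raised 4 and lowered 5 (15.7% and 12.5%), and DOT1Li raised 2 and lowered 1 (5.08% and 5.19%). With EZH2i, 1 rose and 2 fell with Oci-Ly18 left out, and 3 fell with Oci-Ly7 left out, and with DOT1Li 2 fell without Oci-Ly8 DMSO replicate 3 or without SUDHL6. NEIL1, a DNA glycosylase, rose with the combination (log2 fold change 0.67, SE 0.079, adjusted p = 2.92e-09) and with DOT1Li (0.55 (adjusted p = 5.45e-06)). STAP1, an adaptor of B cell receptor signalling, fell with the combination (log2 fold change -0.49, SE 0.056, adjusted p = 4.67e-10), and P2RY8, a receptor that confines B cells to the germinal centre, fell with EZH2i (-0.21 (adjusted p = 2.21e-06)). ASB13 rose with the combination (log2 fold change 0.84, SE 0.10, adjusted p = 1.46e-09) and with EZH2i (0.85 (adjusted p = 5.86e-09)), the EZH2i value being 0.26 (0.0845) with Oci-Ly18 left out. ITPKB, a kinase that limits PI3K signalling, was lower with DOT1Li (-0.36 (adjusted p = 3.59e-05)), which without Oci-Ly18 was -0.07 (0.668).

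By the same measure of likeness that paired BCL6 with MYBL1, the other members had nearest genes outside the list. These were FAM78A (0.913) and ST6GAL1 (0.88) for MEF2B, FECH (0.927) and SMYD3 (0.926) for MEF2C, CDIP1 (0.957) and ENAH (0.956) for BACH2, and SCARB1 (0.941) and SRP54 (0.934) for FOXO1. For POU2AF1 they were RBM15 (0.908) and PATL1 (0.902), for SPIB RIOK2 (0.932) and EIF1AX (0.92), for IRF8 ZNF831 (0.881) and BIRC3 (0.861), and for BCL7A FAM98A (0.961) and GUF1 (0.941). Between members, the closest pairs after BCL6 and MYBL1 were BCL7A and FOXO1 (0.735), where FOXO1 ranked 296th for BCL7A, and MYBL1 and MEF2B (0.715), where MEF2B ranked 76th for MYBL1. BCL6 and SPIB ran in opposite directions (-0.489), as did MEF2C and IRF8 (-0.577). Each value is over 16 group means and across genes that share libraries. All values and ranks with MEF2B, its nearest genes included, are uncertain, since they include SUDHL6 groups with 0 to 4 counts each.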

How the data were processed

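The table holds raw counts per gene as deposited by the authors, in 48 columns assigned to line, treatment and replicate by their headers. Per the labels' protocols, stranded libraries were made from poly(A) RNA. Per the submitters' processing notes, STAR, DESeq2 and GRCh38 (hg38) were used, with no roles or versions, and neither the counting program nor its strand setting is given in the sources used here. Oci-Ly8 appears in 2 places of the growth protocol and Oci-Ly7 in none, so lines follow the sample labels.

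Counts were analysed in R 4.3.3 with edgeR 4.0.16 (limma 3.58.1). The low-count filter filterByExpr, applied to the 16 groups, left 17749 genes. After TMM scaling, a model of 16 group means (32 residual degrees of freedom) gave all contrasts by robust quasi-likelihood F tests, each adjusted over all genes tested, with calls at 0.05. Standard errors were obtained by dividing the size of a log2 fold change by the root of its F value. Levels are CPM of TMM-scaled totals. Floors of 3 counts cover counting error only. The code was tested on simulated data.

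All 10 members are named, as are the called genes of each list with the smallest p (3 for the combination, 2 for each inhibitor) and the 2 nearest genes of each member by correlation of line-centred group means. Of the genes this rule names, 2 are not reported here. Members and lists were chosen with earlier results of these data known. Alternatives were DESeq2 1.42.0, its size factors in edgeR, no filter, a filter at 1 CPM in 12 libraries, replicate numbers as a block, each line alone, each line or library left out, and unscaled totals for levels. Deviations of same-numbered libraries correlated over 0.1 in 17 of 72 pairs of libraries, and at every number in 3 of 24 pairs of groups. The lowest of the 72 correlations was 0.0195, and all 48 libraries correlated best with libraries of their own number. Replicate numbers thus shared some variation, which the main fit did not model and the replicate block did. S100A8 and S100A9 among the myeloid markers were not analysed here.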

Additional observations from a re-analysis of the deposited data

Results flagged for a closer look

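The following results stood out because the effect of a treatment differed between the 4 lines by edgeR's quasi-likelihood F test with 3 degrees of freedom, adjusted over all genes tested. With the combination, the adjusted p of that difference was 6.73e-12 for BCL6, 6.6e-14 for MYBL1, 1e-12 for MEF2C, 1.38e-05 for FOXO1, 1.82e-08 for POU2AF1, 3.83e-12 for SPIB, 1.34e-11 for IRF8 and 0.0375 for BCL7A. With EZH2i it was 2.27e-05 for BCL6, 1.1e-07 for MYBL1, 1.23e-07 for MEF2C, 0.0445 for BACH2, 1.59e-08 for FOXO1, 2.3e-09 for POU2AF1, 0.00273 for SPIB and 0.000798 for IRF8. With DOT1Li it was 0.000426 for BCL6, 4.75e-05 for MYBL1, 0.0184 for MEF2C, 0.0434 for POU2AF1, 5.83e-06 for SPIB, 2.56e-05 for IRF8 and 0.00301 for BCL7A.

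In size, the combination effect lay between -1.24 (Oci-Ly18) and 0.88 (SUDHL6) for BCL6, between -1.30 (Oci-Ly18) and 1.09 (SUDHL6) for MYBL1, between -1.36 (Oci-Ly7) and 1.20 (SUDHL6) for IRF8, between -1.35 (SUDHL6) and 0.42 (Oci-Ly18) for SPIB and between -0.37 (Oci-Ly8) and 1.15 (Oci-Ly18) for MEF2C. SUDHL6 is thus at an end of the range for 4 of these 5 genes, at the upper end for BCL6, MYBL1 and IRF8 and at the lower end for SPIB. Pairs of lines were not tested. Groups have 3 libraries, and single outlying values within a group were not tested.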

How the results depend on the processing

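Of 9447 values of 298 effects under the other settings, 9141 kept their direction and their side of the threshold and 5 reversed. Of those kept, 7074 came from leaving out 1 library. Some of these libraries were outside the contrast, so the effect could hardly change, and the refits kept the trended dispersion of all libraries. In fits of single lines 169 were kept, 15 weakened and 11 strengthened. The 5 reversals came from leaving out a line. The average effect of the combination was 0.1814 for BCL6 and 0.1593 for MYBL1 without Oci-Ly18, and 0.07811 for MYBL1 without Oci-Ly7. The EZH2i average of FOXO1 was 0.00944 without SUDHL6, and the difference between combination and EZH2i for IRF8 was 0.2409 without Oci-Ly7, against -0.00129 over all lines.

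Counts of called members moved as follows. For the combination in Oci-Ly8 the count was 3 in a fit of that line alone and 4 to 7 with single libraries left out, against 7. For EZH2i in Oci-Ly8 it was 1 in that line alone, 4 without the 2 libraries poor in long transcripts and 4 to 7 with single libraries left out, against 7. For DOT1Li in Oci-Ly8 it was 0 in that line alone and 0 to 1 with single libraries left out, against 1. For DOT1Li in Oci-Ly7 it was 4 with no filter, 5 with the replicate block (BCL6, MYBL1, IRF8 and BCL7A in addition to FOXO1), 2 without the 2 Oci-Ly8 libraries and 1 to 5 with single libraries left out, against 1. The DOT1Li average had 4 with the replicate block and 4 without Oci-Ly18, against 2. The EZH2i average had 3 without SUDHL6, against 7, EZH2i against DOT1Li 5 without Oci-Ly8, against 8, and departure from additivity 1 with no filter and 2 with the replicate block, against 0. The causes were not tested.

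The replicate block weakened 0 of 298 effects and left 279 on their side of the threshold. In the 3 pairs of groups where every same-numbered pair correlated over 0.1 (DOT1Li and DMSO in Oci-Ly8, combination and DOT1Li in Oci-Ly7, combination and EZH2i in SUDHL6), it changed 1 member call, BCL7A in combination against DOT1Li in Oci-Ly7 (-0.21, adjusted p = 0.00671, against 0.0860). Replicate numbers share no stated source, although all 48 libraries correlated best with libraries of their own number. With unscaled totals, 44 of 160 levels moved by more than 1 SD, by a ratio of at most 1.14. The median change of all genes with the combination, 0.0783, lay between 0.0529 and 0.092 under other scalings and filters. Replicates of a group differed beyond counting error (chi-square per degree of freedom between 1.81 and 45.5, the highest in Oci-Ly8 DMSO). MEF2B had 0 to 99 counts a group, and whether depth or its overlap with BORCS8 limited it was not tested.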
